A study of Mus musculus with 11 samples.

Results

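The calcium uniporter and calcium store genes, 9 genes of mitochondrial calcium uptake and of the intracellular store, were followed in epididymal white adipose tissue (eWAT), by gene symbol, out of 15453 genes with a value in every mouse. They were Ccdc109b, Mcu, Letm1, Trdn, Atp2a2, Atp2a3, Itpr1, Stim1 and S100a1. Of the 9 genes, 8 were found under these symbols and Mcu was found under its older symbol Ccdc109a, while Ccdc109b is the older symbol of Mcub. All 9 had a mean of at least 50 normalised tags in one genotype, the level the study set for counting a gene as different. The mice were 6 wildtype (WT) and 5 with the inactivated Mest allele inherited from the father (pKO), males aged 16 weeks of the strain labelled C57BL/6 and named C57BL/6J in the study's text, and both genotypes had eaten a high fat diet (HFD) from week 8 to week 16. Mest is an imprinted gene expressed from the paternal allele, and the deletion was in all tissues, so it was limited to no cell type. Expression was measured by SAGE (serial analysis of gene expression), a method that reads 1 short tag per transcript from the side of its last NlaIII site. Values are tag counts scaled to the library and are called normalised tags here.

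Mitochondria take up calcium through the uniporter, a channel of the inner membrane whose pore is made of Mcu. Ccdc109b is the paralogue of Mcu that joins the pore and is known to lower its calcium current, and Letm1 is an inner membrane protein linked to cation exchange. The endoplasmic or sarcoplasmic reticulum is the store: the pumps Atp2a2 and Atp2a3 fill it, the channel Itpr1 empties it on inositol trisphosphate, and Stim1 senses its calcium level and opens entry channels of the plasma membrane. Trdn anchors calsequestrin to the ryanodine receptor at the store junction of striated muscle. S100a1 is a small calcium binding protein known from heart muscle, where it binds the ryanodine receptor and the pump. In fat cells, calcium signals follow hormones and are known to bear on lipolysis and lipid storage.

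The tags below are those of the genes on which the account turns, read from GENCODE transcripts on GRCm38, the assembly also called mm10. The capitals mark the NlaIII site, and the lower case letters are the bases that follow it on the transcript strand. Trdn is shown with 2 tags, because its long and its short RefSeq transcript end differently.
Ccdc109b: CATGgagccagttaccttcttcctgtc
Mcu: CATGgcacagtgcaatgagcaaatcct
S100a1: CATGcccattcgggcaaggaaggggac
Trdn, long transcript: CATGaatagttaattttttattttaaa
Trdn, short transcript: CATGtgcatacctagaataaagacaat
The Ccdc109b tag lies on the minus strand of chromosome 3, chr3:129916988-129917014, in the coding sequence of exon 6 of 8. The S100a1 tag is also on the minus strand of chromosome 3, chr3:90512062-90512088, in the coding sequence of exon 2 of 3. For Mcu the tag is in the 3' UTR, on the minus strand at chr10:59447111-59447137. The long Trdn transcript has its tag in the 3' UTR of exon 38 of 38, chr10:33476679-33476705, and the short one in the 3' UTR of exon 9 of 9, chr10:33200329-33200355, both on the plus strand. The tag chosen for each of the 9 genes was found in no transcript of another gene. Which of a gene's possible tags entered its value is not given in the sources used here, so the values of Trdn cannot be divided between its long and short transcripts.

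The WT libraries held 9659740 to 14825727 tags, and the pKO libraries 11320342 to 14626803. Mest, the gene inactivated in pKO mice, was 25107 ± 2672 (SD) in the 6 WT mice and 1663 ± 566 (SD) in the 5 pKO mice, with every pKO mouse below every WT mouse. The adipocyte markers were present in both genotypes, led by Fabp4, at means of 655817 in WT and 698530 in pKO mice. Among 9906 genes with a mean of at least 50, limma, a linear model fitted across all genes, placed 10.6% at an unadjusted p of 0.05 or less, with 5.77% lower (572 genes) and 4.85% higher (480 genes) in pKO mice. With values scaled to the library total instead, the split was 737 lower and 330 higher. At an adjusted p of 0.1 or less the share was 0.0505%.

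Some of the 9 genes were chosen by their WT to pKO difference in these same values, so their genotype differences are given as a description with no test. Of them, 3 stood apart between genotypes: Ccdc109b and Trdn were lower and S100a1 was higher in pKO mice, with no overlap of the mice in any of the 3 genes. For comparison, the ranges were apart in 0.717% of the 9906 genes with pKO mice lower and in 0.717% with pKO mice higher. The other 6 genes overlapped between genotypes, with log2 differences, WT minus pKO, of at most 0.29 in size. The median difference over the 9 genes was 0.00, beside -0.009 over the 9906 genes.

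**Figure D1:**
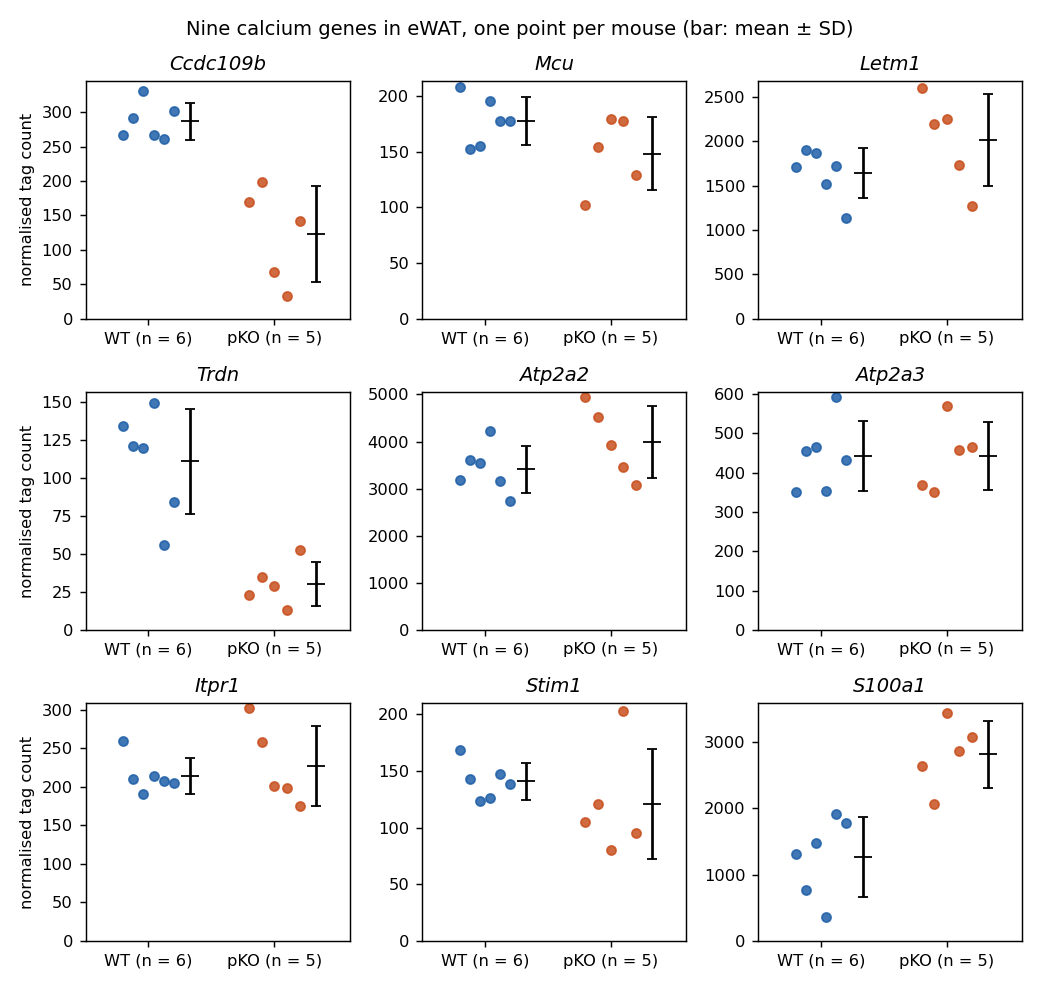
Normalised tag counts of the 9 genes in eWAT on the y axes, one point per mouse, in WT (blue, 6 mice) and pKO (orange, 5 mice), with the mean and SD as black bars and every axis starting at 0. The points of the genotypes are apart for Ccdc109b, Trdn and S100a1 and overlap in the other 6 genes.

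Of the uniporter genes, Ccdc109b was the one without overlap between genotypes, with lower values in pKO mice. In WT mice it ran from 261 to 330.3 normalised tags with a median of 279. The pKO mice, from replicate 1 to 5, had 170, 199, 67.2, 33.5 and 142. The highest pKO mouse therefore lay below the lowest WT mouse, and the pKO mice differed widely among themselves while the WT mice lay close together. The means were 286 ± 26.7 (SD) in the 6 WT mice and 122 ± 69.9 (SD) in the 5 pKO mice, a log2 difference of 1.48 with a standard error of 0.37. Single pKO mice held between 11.7% and 69.6% of the WT mean. The coefficient of variation, the SD as a percentage of the mean, was 9.32% in WT mice, below the median of 15.5% over the 9906 genes. In pKO mice it was 57.1%, higher than in 96.2% of the genes.

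Mcu, the pore subunit, overlapped between genotypes. WT mice ran from 152 to 208 with a median of 177, and pKO mice had 102, 154, 179, 177 and 129. Its means of 177 ± 22.0 (SD) in the 6 WT mice and 148 ± 32.7 (SD) in the 5 pKO mice differed by 0.28 on the log2 scale with a standard error of 0.17. Because SAGE counts 1 tag per transcript, levels of different genes can be set side by side without a correction for length. This holds only if all tags of a gene were counted, which is not given in the sources used here. The transcripts of Ccdc109b share 1 tag, and those of Mcu hold 5 different tags. The order of levels given below has the same limit. In each of the 6 WT mice Ccdc109b had more tags than Mcu, and the ratio of Ccdc109b to Mcu ran from 1.28 to 2.14 with a median of 1.59. In pKO mice the ratio was 1.66, 1.30, 0.375, 0.190 and 1.1. The pKO mice of replicates 3 and 4 were thus the only mice with fewer tags of Ccdc109b than of Mcu, and the ratios of the genotypes overlapped.

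**Figure D2:**
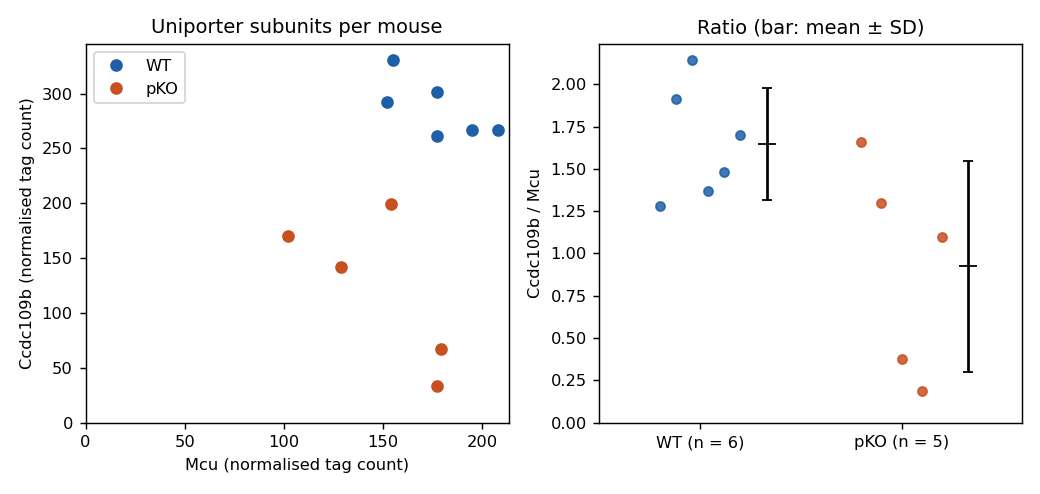
Left, normalised tag counts of Ccdc109b (y axis) against Mcu (x axis), one point per mouse, WT blue and pKO orange. Right, their ratio per mouse with mean and SD, which ran from 1.28 to 2.14 in WT mice and from 0.190 to 1.66 in pKO mice.

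Letm1 was far more abundant than either pore gene. It ran from 1139 to 1899 in WT mice with a median of 1711, and the pKO mice had 2604, 2198, 2244, 1733 and 1268. Of the 5 pKO mice, 3 lay above all WT mice, and the remaining pair lay within the WT range. The log2 difference was -0.27 with a standard error of 0.19, and without pKO replicate 5, the lowest pKO mouse, it was -0.43.

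Among the genes of the store and its junction, Trdn showed the difference of largest size. WT mice ran from 56.0 to 149.5 normalised tags with a median of 120.2. The pKO mice had 23.2, 34.4, 28.5, 13.2 and 52.2. The gap between the genotypes was narrow, since WT replicate 5 at 56.0 and pKO replicate 5 at 52.2 were close, while the other WT mice were at 84.3 or more. The means were 111 ± 34.5 (SD) in the 6 WT mice and 30.3 ± 14.5 (SD) in the 5 pKO mice, which left the pKO mean at 27.4% of WT. On the log2 scale the difference was 1.90 with a standard error of 0.33, and it lay between 1.64 and 2.12 with each mouse left out in turn. These are low values, resting on 15 to 154 tags per library.

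Trdn is known as a gene of striated muscle, so markers of skeletal muscle were measured beside it. Of 18 skeletal muscle markers, 15 were in the tables, and their summed level was 322 to 564 in WT and 421 to 645 in pKO mice (log2 difference -0.22, exact permutation test, two-sided, p = 0.19, adjusted p = 0.51 over 11 marker lists). The most abundant of these markers was Des, at means of 205 in WT and 265 in pKO mice, which smooth muscle also expresses. The mean was under 3 tags per library for 3 of the 15 markers. Others lay between these in level. Acta1 averaged 54.5 in WT and 74.5 in pKO mice, with pKO replicate 2 at 219. Actn3 averaged 46.2 and 50.2, Mylpf 44.9 and 48.7, Pygm 27.3 and 28.6, and Tnnc2 32.2 and 23.9. Ckm, the creatine kinase of muscle, averaged 5.2 in WT and 3.2 in pKO mice, and Ttn, the giant protein of the sarcomere, averaged 2.26 and 1.66. Among the markers that went the other way, Myh1 averaged 1.6 in WT and 2.94 in pKO mice, and Mybpc2 averaged 3.5 and 5.77. By single marker, the log2 difference was positive (lower in pKO mice) for 7 of the 15 and negative for 8, and 1 of the 15 was lower at an unadjusted p of 0.05 or less. That marker, Myh2, a myosin heavy chain of fast fibres, had few tags and no overlap between genotypes, with 8.33 ± 1.55 (SD) in the 6 WT mice and 2.29 ± 1.35 (SD) in the 5 pKO mice (limma, adjusted p = 0.27).

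The protein partners of Trdn at the junction were tested in the fit across all genes, on a list drawn up with earlier results of these data known. Ryr2, a ryanodine receptor, had 58.5 ± 15.8 (SD) in the 6 WT mice and 34.1 ± 24.5 (SD) in the 5 pKO mice (log2 difference 0.93, limma, adjusted p = 0.43). The pKO mice had 18.0, 76.8, 25.4, 18.5 and 31.7, so pKO replicate 2 was the only one within the WT range. Without that mouse the difference was 1.27 and the adjusted p was 0.1 or less, and without pKO replicate 1 or 4 it was 0.76 or 0.77 and the unadjusted threshold was missed. Ryr1, the receptor of skeletal muscle, had 66.4 ± 18.5 (SD) in the 6 WT mice and 44.6 ± 8.44 (SD) in the 5 pKO mice (log2 difference 0.54, limma, adjusted p = 0.45). Its unadjusted call was lost without WT replicate 6, at 0.42, or pKO replicate 2, at 0.46. Casq2, a calsequestrin, had 236 ± 46.4 (SD, 6 WT mice) and 279 ± 101 (SD, 5 pKO mice), and Jph1, a junctophilin that ties the store to the surface membrane, had 171 ± 26.9 and 177 ± 36.7. Neither of these latter 2 genes passed the test (adjusted p = 0.84 and 0.95). Both receptors therefore passed only the unadjusted threshold, in the direction of Trdn.

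**Figure D3:**
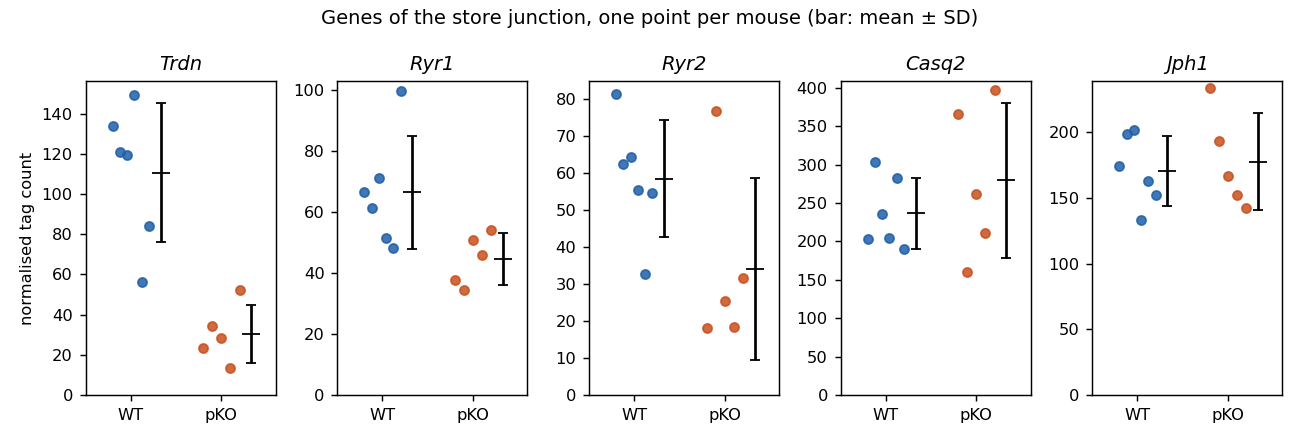
Normalised tag counts of Trdn, Ryr1, Ryr2, Casq2 and Jph1, one point per mouse, in WT (blue, 6 mice) and pKO (orange, 5 mice), with mean and SD as black bars. Trdn does not overlap between genotypes, the single high pKO point of Ryr2 is replicate 2 at 76.8, and the genotype ranges of Casq2 and Jph1 overlap.

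The store pumps were similar in level between genotypes. Atp2a2, the widely expressed pump, ran from 2742 to 4220.4 normalised tags in WT mice with a median of 3359. The pKO mice had 4939.6, 4525, 3934, 3456 and 3084. Of the 5, 2 lay above all WT mice, and the log2 difference was -0.22 with a standard error of 0.15. Atp2a3, the pump known from blood cells and endothelium, ran from 352 to 593 with a median of 444 in WT mice, and pKO mice had 369, 351, 569, 459 and 466. Its log2 difference was 0.00 with a standard error of 0.17, so the genotype means of 442 ± 89.4 (SD, 6 WT mice) and 443 ± 87.4 (SD, 5 pKO mice) lay within each other's spread. The ratio of Atp2a2 to Atp2a3 was 5.34 to 12 in WT and 6.62 to 13.4 in pKO mice.

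Itpr1, the release channel, and Stim1, the store sensor, also overlapped. Itpr1 ran from 191 to 259 in WT mice with a median of 209, and the pKO mice had 302, 258, 201, 198 and 175. Its log2 difference was -0.06 with a standard error of 0.16. The pKO mice had both the highest and the lowest value of the 11. Stim1 ran from 123 to 168 in WT mice with a median of 140.5, and the pKO mice had 105, 120.3, 80.4, 203 and 95.2. Of the 5 pKO mice, 4 lay below all WT mice and pKO replicate 4 lay above all of them. The log2 difference of Stim1 was 0.29 with a standard error of 0.21, and without pKO replicate 4 it was 0.49.

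S100a1 was the gene with the higher level in pKO mice. WT mice ran from 362 to 1910.4 normalised tags with a median of 1393, and the pKO mice had 2630.3, 2066, 3429, 2870.2 and 3068. All 5 pKO mice lay above the highest WT mouse, and the WT mice were widely spread. The means were 1268 ± 599 (SD) in the 6 WT mice and 2813 ± 509.6 (SD) in the 5 pKO mice, a log2 difference of -1.33 with a standard error of 0.36. The pKO mean was 2.22 times the WT mean. The coefficient of variation was 47.2% in WT mice, higher than in 97.2% of the 9906 genes, and 18.1% in pKO mice, below their median of 23.2%. Ccdc109b and S100a1 thus had opposite patterns of spread: Ccdc109b was even among WT mice and uneven among pKO mice, and S100a1 was the reverse. Without WT replicate 4, the lowest WT mouse, the log2 difference of S100a1 was -1.0.

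**Figure D4:**
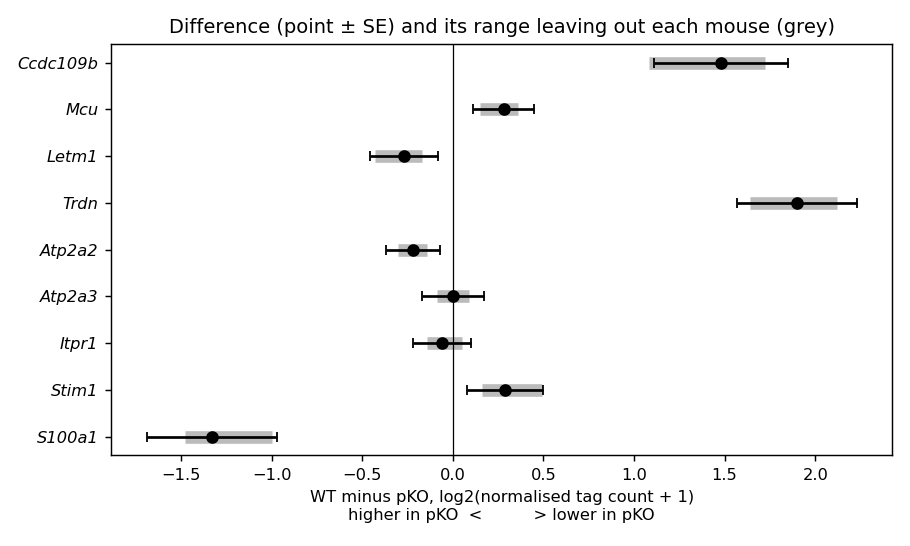
Difference between genotypes for each of the 9 genes, log2(value + 1) of WT minus that of pKO (x axis), as a point with its standard error, over the range obtained by leaving out each mouse in turn (grey). Ccdc109b at 1.48 and Trdn at 1.90 lie to the right of 0 and S100a1 at -1.33 to the left over the whole grey range, while the other 6 points lie within 0.29 of 0. Ccdc109b, Trdn and S100a1 did not overlap between genotypes, so leaving out a mouse could not bring their differences across 0.

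In order of level, Atp2a2 came first in WT mice at a mean of 3410.1, followed by Letm1 at 1639.7, S100a1 at 1268, Atp2a3 at 442, Ccdc109b at 286, Itpr1 at 215, Mcu at 177, Stim1 at 141 and Trdn at 111. The WT ranges of neighbours overlapped between Letm1 and S100a1, S100a1 and Atp2a3, Itpr1 and Mcu, Mcu and Stim1, and Stim1 and Trdn. They were apart between Atp2a2 and Letm1, between Atp2a3 and Ccdc109b, and between Ccdc109b and Itpr1. Within single mice, S100a1 was above Atp2a3, Itpr1 above Mcu and Mcu above Stim1 in all 6 WT mice. Letm1 was above S100a1 in 4 of the 6, and Stim1 above Trdn in 5. In pKO mice S100a1 stood between Atp2a2 and Letm1, and its range overlapped with both. Atp2a2 was above S100a1 in all 5 pKO mice, and S100a1 above Letm1 in 4 of the 5. Ccdc109b, at a pKO mean of 122, came after Itpr1 and Mcu and next to Stim1 at 121, with which it overlapped. Trdn was last in both genotypes.

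The other genes of the pathway were taken from 7 lists of calcium genes, without the 9 genes above. Of 102 such genes, 91 were in the tables and 69 had a mean of at least 50. Of the 69, 8 fell and 3 rose in pKO mice at an unadjusted p of 0.05 or less (limma), or 15.9% beside 10.6% over all genes, and 0 had an adjusted p of 0.1 or less. The counts of single lists given below rest on few genes each and stand beside the same 10.6%. The median log2 difference of the 69 was 0.03. With DESeq2 on the recovered tags, 1 of them, Calr, had an adjusted p of 0.1 or less, where 1.22% of all genes did, and with edgeR none had.

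Of the other mitochondrial calcium genes, 15 had a mean of at least 50, and 1 fell and 1 rose at the unadjusted threshold, with a median difference of 0.01. Slc25a13, the calcium regulated aspartate and glutamate carrier, fell from 136 ± 17.8 (SD, 6 mice) in WT to 102 ± 29.5 (SD, 5 mice) in pKO, at limma adjusted p = 0.51. The unadjusted call was lost without any one of 6 mice, at log2 differences of 0.27 to 0.47. Slc25a25, a calcium regulated carrier of ATP and magnesium, rose from 109 ± 14.6 (SD, 6 mice) in WT to 152 ± 32.6 (SD, 5 mice) in pKO, with an adjusted p of 0.43. Neither Micu2, which gates the uniporter, with means of 124 in WT and 125 in pKO mice, nor Smdt1, its small essential subunit, with 181 and 153, passed. Ghitm, an inner membrane protein, was the most abundant of this list at 2454 and 2859 and did not pass either (adjusted p = 0.64).

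The genes that hold calcium inside the store had the smallest p-value of the 7 lists. Calr, calreticulin, ran from 888 to 1297 in WT mice, and the pKO mice had 447, 761, 701, 679.6 and 419. The genotypes did not overlap, and the means of 998 ± 158 (SD, 6 WT mice) and 601 ± 157 (SD, 5 pKO mice) differed by 0.76 on the log2 scale with a standard error of 0.18 (limma, adjusted p = 0.27). Calr thus fell at the unadjusted threshold, and its adjusted p did not pass. Pdia3, a disulfide isomerase that works with calreticulin, fell from 1059 ± 131 (SD, 6 mice) in WT to 842 ± 181 (SD, 5 mice) in pKO, with an adjusted p of 0.51, and lost its call without any one of 8 mice, at 0.26 to 0.35. In all, 2 of the 12 genes of this list with a mean of at least 50 fell, 0 rose and 10 did not pass. The chaperone Hspa5, the most abundant of them at means of 11310 in WT and 10660 in pKO mice, did not pass (adjusted p = 0.84).

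Of the release channels and junction genes, 2 of 10 fell, Ryr1 and Ryr2 as given above, and 0 rose. Fkbp1a, the receptor binding protein with the highest mean of that list, varied widely, with 4973 ± 2842 (SD) in the 6 WT mice and 5686 ± 4844 (SD) in the 5 pKO mice. Of 3 other pump genes with a mean of at least 50, Atp2b4, a pump of the plasma membrane, rose from 1938 ± 249 (SD, 6 mice) in WT to 2686 ± 630.3 (SD, 5 mice) in pKO, at an adjusted p of 0.40. In muscle the store pumps are held back by the small proteins Pln and Sln, and both were low here, with WT means of 17.9 and 2.48. None of the 6 other genes of store-operated entry passed, and the most abundant of them, Saraf (listed as Tmem66), which limits that entry, had means of 1607 in WT and 1832 in pKO mice.

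Of 6 other members of the S100 family with a mean of at least 50, 0 passed in either direction, and their median log2 difference was -0.41. S100a10, the most abundant, had 5710.1 ± 779.8 (SD) in the 6 WT mice and 7343 ± 2334 (SD) in the 5 pKO mice. S100a9, left out of this count by its low mean, had 14.5 ± 4.97 (SD) in the 6 WT mice and 24.5 ± 10.5 (SD) in the 5 pKO mice, with a limma p of 0.05 or less before adjustment and an adjusted p of 0.49. S100a11 had 296 ± 133 and 514 ± 383, and S100a4 had 898 ± 178 and 739 ± 462. S100a1 was therefore the only one of the measured family whose genotypes did not overlap, and it is also the one chosen with these values known.

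Calmodulin and calcineurin genes, which read the calcium signal in the cytosol, gave 3 lower and 1 higher of 17 at the unadjusted threshold. That was 23.5% of a short list, beside 10.6% over all genes. Calm2, one of the genes for calmodulin, ran from 11282 to 14736 in WT mice, and pKO mice had 1593, 12133, 2199.9, 10489 and 6549. Its log2 difference was 1.36 with a standard error of 0.45 (limma, adjusted p = 0.38), and 2 of the 5 pKO mice were near or within the WT range. Nfatc3, a transcription factor activated by calcineurin, fell from 548 ± 56.5 (SD, 6 mice) in WT to 435 ± 81.8 (SD, 5 mice) in pKO, and Rcan2, a calcineurin regulator, fell from 59.4 ± 12.6 to 43.5 ± 7.54. Camk2d, a calmodulin dependent kinase, rose from 1250.4 ± 206 to 1644 ± 391. The adjusted p-values of these 3 genes in limma were 0.46, 0.50 and 0.52. Their unadjusted calls were lost without any one of 3 mice for Nfatc3 (0.30 to 0.31), of 7 for Rcan2 (0.34 to 0.42) and of 7 for Camk2d (-0.37 to -0.29). Calm2 kept its call with each mouse left out.

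**Figure D5:**
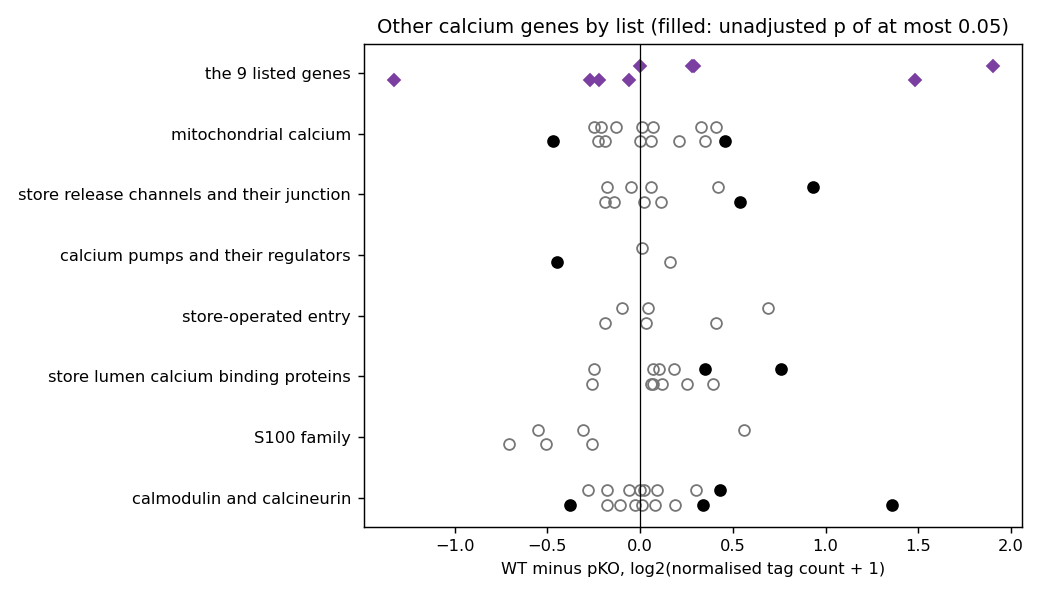
Difference between genotypes, log2(value + 1) of WT minus that of pKO (x axis), for the 9 genes (diamonds, no test) and for 69 other calcium genes with a mean of at least 50 (circles), one row per list. Filled circles are the 11 genes with an unadjusted p of 0.05 or less, and none of the 69 had an adjusted p of 0.1 or less.

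The tissue is a mixture, and in bulk eWAT fewer cells of a type and less RNA per cell cannot be told apart. Marker sums of 11 cell types were compared between genotypes by an exact permutation test, two-sided. Fibroblast and preadipocyte markers (9 of 9 found) summed to 55883 to 68968 in WT and 69871 to 76018 in pKO mice (exact permutation p = 0.0043, adjusted p = 0.024 over the 11 lists). Most of this sum's change was in its most abundant gene, Dcn, with means of 21572 in WT and 27841 in pKO mice, the only 1 of the 9 with an unadjusted p of 0.05 or less, and 4 of the 9 had a log2 difference of 0 or in the other direction. Mesothelial markers (9 of 9) summed to 1380 to 2051 in WT and 2076 to 3064 in pKO mice (exact permutation p = 0.0043, adjusted p = 0.024), and all 9 were higher in pKO mice, 4 of them at an unadjusted p of 0.05 or less. Macrophage markers (12 of 12) summed to 8735 to 15434 in WT and 8027 to 10800 in pKO mice (exact permutation p = 0.054, adjusted p = 0.20). By single marker, the log2 difference was positive for 11 of the 12, 4 of them at an unadjusted p of 0.05 or less, and negative for 1. For Emr1, 1 of the 11, it was 0.01, with means of 856 in WT and 865 in pKO mice. Over the 9906 genes, 10.6% were at that unadjusted threshold. The remaining 8 lists had adjusted p-values of 0.51 or more. The first 2 sums were higher, and the macrophage sum lower without passing, in the genotype with more S100a1 and less Ccdc109b and Trdn. The part of these sums in the differences of the 9 genes was not tested.

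Variation among the 6 WT mice had not been used to choose the genes, so each of the 9 was set against Mest, the macrophage sum and the skeletal muscle sum within WT mice. Of 27 relations, 0 had an unadjusted p under 0.05 for Pearson's r in the exact permutation test over 720 pairings, and the lowest adjusted p was 0.80. The lowest p for Spearman's rho was that of Letm1 with Mest (rho = -0.89, exact permutation p = 0.033, adjusted p = 0.90; r = -0.73, exact permutation p = 0.089, adjusted p = 0.80). Without the 2 WT mice farthest from the median of Mest, r was -0.83. The lowest p for r was that of Mcu with Mest (r = 0.78, exact permutation p = 0.071, adjusted p = 0.80), and r was 0.05 without those 2 mice. Ccdc109b with Mest had an r of -0.66 (exact permutation p = 0.15, adjusted p = 0.80) and an r of 0.89 without them. Trdn had an r of 0.18 with the skeletal muscle sum (exact permutation p = 0.69, adjusted p = 0.97), a rho of -0.09 (exact permutation p = 0.92, adjusted p = 0.95) and an r of -0.55 without the 2 farthest mice. Ccdc109b had an r of 0.59 with the macrophage sum (exact permutation p = 0.22, adjusted p = 0.80), a rho of 0.77 (exact permutation p = 0.10, adjusted p = 0.92) and an r of 0.34 without the 2 farthest mice. With 6 mice, none of these relations was detectable.

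The genes whose pattern across mice was most like each of the 9 were found by the correlation of deviations from the genotype mean over the 11 mice, which share their libraries and scaling, among the 9906 genes. These are descriptions. For Ccdc109b the most alike were Ids, Eya3 and Bloc1s2a, each with an r of 0.94. The coefficient of variation of Ccdc109b was 57.1% in pKO and 9.32% in WT mice, so its deviations were mostly those of pKO mice. The genes nearest to Trdn were 1700086O06Rik (0.93), Gpr65 (0.91) and Rab27b (0.90), and those nearest to S100a1 were Rfc2 (0.95), Pygb (0.94) and Tcea3 (0.93). Letm1 was most like Katna1 (0.98), Ogfod2 (0.97) and Chpt1 (0.94), and Atp2a2 most like Creb3l1 (0.96), Asap2 (0.96) and Arf3 (0.95). Mcu was followed most closely by Dhx8 (0.92), Atp2a3 by Aptx (0.94), Itpr1 by Pvrl1 (0.92) and Stim1 by Fmod (0.89). Among the 9 genes themselves, Letm1 and Atp2a2 had the highest r, 0.76, and Atp2a2 and S100a1 the lowest, -0.66. Ccdc109b and Mcu deviated in opposite directions, with an r of -0.64.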

How the data were processed

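SAGE libraries were made from eWAT of 6 WT and 5 pKO mice. The authors mapped the tags with SOLiD SAGE software, and the submitters' processing notes name edgeR 3.2.3 and build mm10. The deposited values are a signal, tag counts divided by a size factor. Whole tags were recovered for 100.0% of values (tolerance 0.001), 0.836 to 1.187 per tag, and no libraries agreed within sampling noise. Precision from depth covers counting error only.

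Values were tested as log2(value + 1) with limma 3.58.1 (trend) over 15453 genes with Benjamini-Hochberg adjustment, the scale understating changes of low genes. Counted genes had means of 50 or more in one genotype and adjusted p-values up to 0.1, or unadjusted p-values up to 0.05. Differences are WT minus pKO. The fit was checked on simulated data with 1 dispersion for all genes and both genotypes. In these mice the median coefficient of variation was 15.5% in WT and 23.2% in pKO, so the check did not cover this unequal spread. The recovered counts were also tested with edgeR 4.0.16, which called 5 genes at the adjusted threshold, and DESeq2 1.42.0, which called 121, beside 5 in limma. Marker sums and Mest were compared over all 462 splits, with a smallest possible p of 0.0022. Alternatives were other scalings (total count, TMM, median of ratios), pseudocounts of 0.5 and 10, a filter of 10 tags per library, no trend, voom, the replicate number as a block, no minimum mean or one of 100, and leaving out each mouse. Tags were read from GENCODE M21 transcripts at 27 bases, a length chosen for display.

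The 9 genes and all lists were chosen with earlier results of these data known. Named in the text were the 9 genes, Mest, in each list up to 4 genes with the smallest p at the unadjusted threshold and the most abundant gene, the most abundant marker of a list, and the genes most like each of the 9. Myh1, Myh2, Mybpc2, Ckm, Ttn, Casq2, Jph1, Micu2, Smdt1, Pln, Sln, S100a4, S100a9 and S100a11 were named after their values were seen. The same holds for Acta1, Actn3, Mylpf, Pygm, Tnnc2 and Emr1. Some genes that this rule names are not reported here.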

Additional observations from a re-analysis of the deposited data

Results flagged for a closer look

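A mouse was set apart when its gap to the nearest other mouse of its genotype, divided by the range of the genotype, exceeded Dixon's 95% critical value. This was done for 45 quantities that the text reports, the 9 genes, the Ccdc109b to Mcu ratio, Mest, the named genes of the lists and 4 marker sums, and for no other gene. Chance does this in about 1 of 20 groups, and 8 of 90 groups of mice did so, where 4.5 would come by chance. Among the 9 genes this was Itpr1 alone, at 259 in WT replicate 1 with the other WT mice at 191 to 214. Among the other genes examined, Slc25a13 was at 171 in WT replicate 4 (others 123 to 134), Hspa5 at 12303 in WT replicate 1 (others 10938 to 11228) and Tmem66, the older symbol of Saraf, at 2161 in WT replicate 6 (others 1383 to 1629), while S100a11 was low at 43.9 in WT replicate 6 (others 279.8 to 414). In pKO mice, Ryr2 was at 76.8 in replicate 2 (others 18.0 to 31.7), Micu2 at 176 in replicate 2 (others 108 to 119) and Nfatc3 at 579 in replicate 1 (others 384 to 426).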

How the results depend on the processing

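Ccdc109b, Trdn and S100a1 kept their direction under all 22 alternatives run. Because their genotypes did not overlap, leaving out a mouse or changing the pseudocount could not have reversed it. The difference of Ccdc109b moved from 1.48 to 1.08 without pKO replicate 4, beside its standard error of 0.37. With each mouse left out, the log2 difference was 1.08 to 1.72 for Ccdc109b, 1.64 to 2.12 for Trdn and -1.48 to -1.0 for S100a1. At the adjusted threshold over all genes, the counts of 4 lower and 1 higher in pKO mice became 9 and 2 with at least 10 tags required in every library, and 63 and 58 with DESeq2. Leaving out each mouse gave 2 to 65 lower and 1 to 26 higher, the most without pKO replicate 2, when Ryr2 and Calr were at an adjusted p of 0.1 or less. Of the other calcium genes, 8 lower and 3 higher at the unadjusted threshold became 5 to 13 and 2 to 6 with each mouse left out; the 13 and 6 came without pKO replicate 1, and 5 lower without WT replicate 1 or 3 or pKO replicate 3 or 4. Calr, Atp2b4 and Calm2 kept their unadjusted call in every alternative, and the other 8 of the 11 lost it in at least 1. The number of marker lists at an unadjusted p of 0.05 or less was 2, or 3 without WT replicate 5, when macrophage markers passed, and the skeletal muscle sum did not pass in any of them. The cause of these changes was not tested. Depth limits Trdn most, which rested on 15 to 154 tags per library.

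The labels give both genotypes replicate numbers, but same-numbered mice did not deviate together (mean r of -0.024 over 5 pairs, 0.005 for different numbers), and 1 of 5 WT mice was closest to its own number. A block for the number, in which WT replicate 6 has no partner, gave 1 lower and 0 higher gene at the adjusted threshold, and 4 of the 11 other calcium genes lost their unadjusted call.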
